A study of Mus musculus with 16 samples.

Results

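The genes described here are 10 genes of pigment cells, *Tyr*, *Tyrp1*, *Dct*, *Pmel*, *Mlana*, *Mitf*, *Slc45a2*, *Oca2*, *Mc1r* and *Slc24a5*. They were taken by name from a table of read counts for 45706 mouse genes, and all 10 were among the 21526 genes that passed the filter on low counts. None of the 10 was at 0 in any library.

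Melanocytes are the cells that make melanin. In the mouse they sit in the hair follicles and also, in nearly hairless skin such as that of the ear, in the epidermis and dermis. Melanin is built inside a special organelle, the melanosome, on a scaffold of fibrils, by an enzyme cascade that starts from tyrosine and depends on transporters that set the pH and the ion content of the organelle. The transcription factor MITF switches on many of these genes, and the receptor MC1R at the cell surface raises its activity when it binds melanocortin.

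The libraries came from the ears of 8 male mice of the inbred, black-coated strain C57Bl/6J. Each mouse was clipped with a 3 mm die cutter in one ear at 24 months and in the other ear at 30 months, so that every mouse gave a pair of libraries and there were 16 in all. The labels call the first group young and the second old and give ages of 23.8 to 24.4 months and 29.0 to 30.1 months, with a mean interval of 5.46 months. No treatment, no transgene and no batch is named for either group, and the labels give skin (ear) as the tissue. The first group had already reached an advanced age, and age and the ear that was clipped (first or second) changed together and cannot be told apart.

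The libraries held 22967222 to 36162431 reads that fell on genes. Values are given as CPM, the reads of a gene per 1000000 reads on genes, with library sizes scaled by the TMM method. Markers of skin were abundant. Medians at 24 months were 4688 CPM for *Krt5* and 11349 CPM for *Krt10* (keratins of the basal and of the differentiated epidermis). *Flg* and *Matn1* were at or near 0, unlike the other markers of their lists. Medians at 24 months ran from 67.1 CPM (*Ivl*) to 11349 CPM (*Krt10*) for the other differentiated keratinocyte markers. For the other cartilage markers they ran from 8.54 CPM (*Col9a1*) to 52.3 CPM (*Sox9*). The library of mouse 29 at 30 months stood apart from the rest. It held the highest or the lowest value of the 16 libraries in 34.9% of the tested genes, against 3.33% to 20.0% in the other 15 libraries, so the comparisons of ages for the 10 genes and the counts for the other lists are given with and without this mouse. In bulk tissue, fewer melanocytes and less RNA of a gene in each melanocyte cannot be told apart.

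The 10 genes lie on 9 chromosomes. In GENCODE M21 (GRCm38) *Tyr* spans chr7:87424771-87493512 on the minus strand, *Tyrp1* chr4:80834123-80851719 on the plus strand and *Dct* chr14:118012790-118052244 on the minus strand. *Pmel* spans chr10:128704195-128720238, *Mlana* chr19:29697824-29708634 and *Mitf* chr6:97807052-98021349, all on the plus strand. *Slc45a2* (chr15:11000721-11029233), *Oca2* (chr7:56239760-56536518), *Slc24a5* (chr2:125068124-125088677) and *Mc1r* (chr8:123407107-123410744) are also on the plus strand. Counting is per gene over exons. Exons of *Pmel* overlap those of *Cdk2* by 34 bases and of *Dgka* by 105 bases, those of *Mc1r* overlap the antisense gene *Gm38092* by 653 bases, and those of *Slc24a5* overlap the antisense gene *Myef2* by 921 bases. The kit does not mark strand, so the values of these 3 genes carry that uncertainty.

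MITF is known to bind short elements around the letters CATGTG, and in promoters of pigment genes the form TCATGTG is a textbook example. RefSeq promoter sequences (GRCm38.p6) were at hand for 7 of the 10 genes, as 9 promoters. The 250 bases before the start site were searched on both strands for the letters CATGTG and for the longer TCATGTG, which contains them. CATGTG was found for 6 of the 7 genes and TCATGTG for 5. Among all 32851 RefSeq promoters, 12.3% held CATGTG and 3.25% held TCATGTG. The former are counts of genes and the latter shares of promoters, so the units differ. The letters were already known from promoters of pigment genes, so the counts are no test. The 3 promoters of *Mitf* held neither, and *Oca2* held only the shorter form. A match is a description of the letters and not evidence of a bound site. The stretches around the matches are shown because 5 genes of the pigment programme have these letters in common. They read 5′ to 3′ along the strand of the gene, with TCATGTG or its reverse complement in capitals, and are cut to fewer bases where the annotation places an exon in the window.
Tyr, chr7:87493513-87493594, minus strand: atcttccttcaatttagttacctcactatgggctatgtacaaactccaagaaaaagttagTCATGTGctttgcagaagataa
Tyrp1, chr4:80834155-80834183, plus strand: tggggagggagTCATGTGctgcctagtag
Dct, chr14:118052331-118052496, minus strand: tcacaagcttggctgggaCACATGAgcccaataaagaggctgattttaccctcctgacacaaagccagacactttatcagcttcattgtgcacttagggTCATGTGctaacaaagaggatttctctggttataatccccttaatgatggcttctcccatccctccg
Slc24a5, chr2:125068103-125068126, plus strand: aggagactgctCACATGAttcagc
Mc1r, chr8:123406970-123407081, plus strand: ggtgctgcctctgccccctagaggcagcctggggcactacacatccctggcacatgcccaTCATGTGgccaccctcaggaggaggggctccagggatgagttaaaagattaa
The first base of the match lay 22 bases before the start site in *Tyr*, 47 in *Tyrp1*, 151 and 232 in *Dct*, 13 in *Slc24a5* and 52 in *Mc1r*. The *Mc1r* stretch holds a second, shorter match in lower case. These distances are from the RefSeq start sites. By the GENCODE spans given above, the *Tyrp1* stretch and the last bases of the *Slc24a5* stretch lie inside the gene.

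The central question of this design is what changed within a mouse between both ages. At 30 months the estimates of all 10 pigment genes were below those at 24 months, but none passed the threshold of an adjusted p of 0.05 in the paired fit (edgeR, quasi-likelihood, with a term for each mouse). Over all tested genes 48.3% had an estimate below 0, and 0% passed the threshold. DESeq2's Wald test on the same pairs called 1.11% of all genes and none of 9 of the 10, with no adjusted p given for *Slc45a2*, and had 3 of the 10 (*Dct*, *Mlana* and *Slc24a5*) as lower at an unadjusted p under 0.05, where 6.01% of all genes were. At an unadjusted p under 0.05, edgeR had 2 of the 10 genes as lower (*Mlana* and *Slc24a5*) and none as higher, where 7.18% of all genes were lower and 4.86% higher. The median log2 fold change was -0.46 over the 10 genes and 0.01 over all tested genes. Without mouse 29 the median of the 10 genes was -0.18 and that of all tested genes 0.01. The choice of these genes was made with earlier results of these data known, and the counts describe them without testing them as a group.

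The 3 enzymes of melanin synthesis had lower central values at 30 months in overlapping ranges. Tyrosinase (*Tyr*), which catalyses the first and rate-limiting step, had a lowest, median and highest level of 3.36, 6.16 and 8.33 CPM at 24 months and of 1.03, 4.68 and 5.84 CPM at 30 months. Its log2 fold change was -0.48 ± 0.30 (SE, edgeR adjusted p = 0.541). *Tyr* was lower at 30 months in 7 of 8 mice, all but mouse 43.

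*Tyrp1*, which acts on a late indole intermediate and stabilises tyrosinase, had 20.8, 27.2 and 43.05 CPM (lowest, median, highest) at 24 months and 7.38, 22.2 and 31.7 CPM at 30 months. It was lower in 7 of 8 mice, all but mouse 21, and its log2 fold change was -0.46 ± 0.25 (SE, edgeR adjusted p = 0.497). *Dct*, the dopachrome tautomerase that forms that intermediate, had 26.9, 38.8 and 58.8 CPM at 24 months and 8.93, 28.4 and 35.4 CPM at 30 months. Its log2 fold change was -0.57 ± 0.27 (SE, edgeR adjusted p = 0.426), and again mouse 43 alone was higher at 30 months. For *Dct*, 5 of the 8 libraries of 24 months were above the highest of 30 months, although the other 3 fell inside that range.

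**Figure D1:**
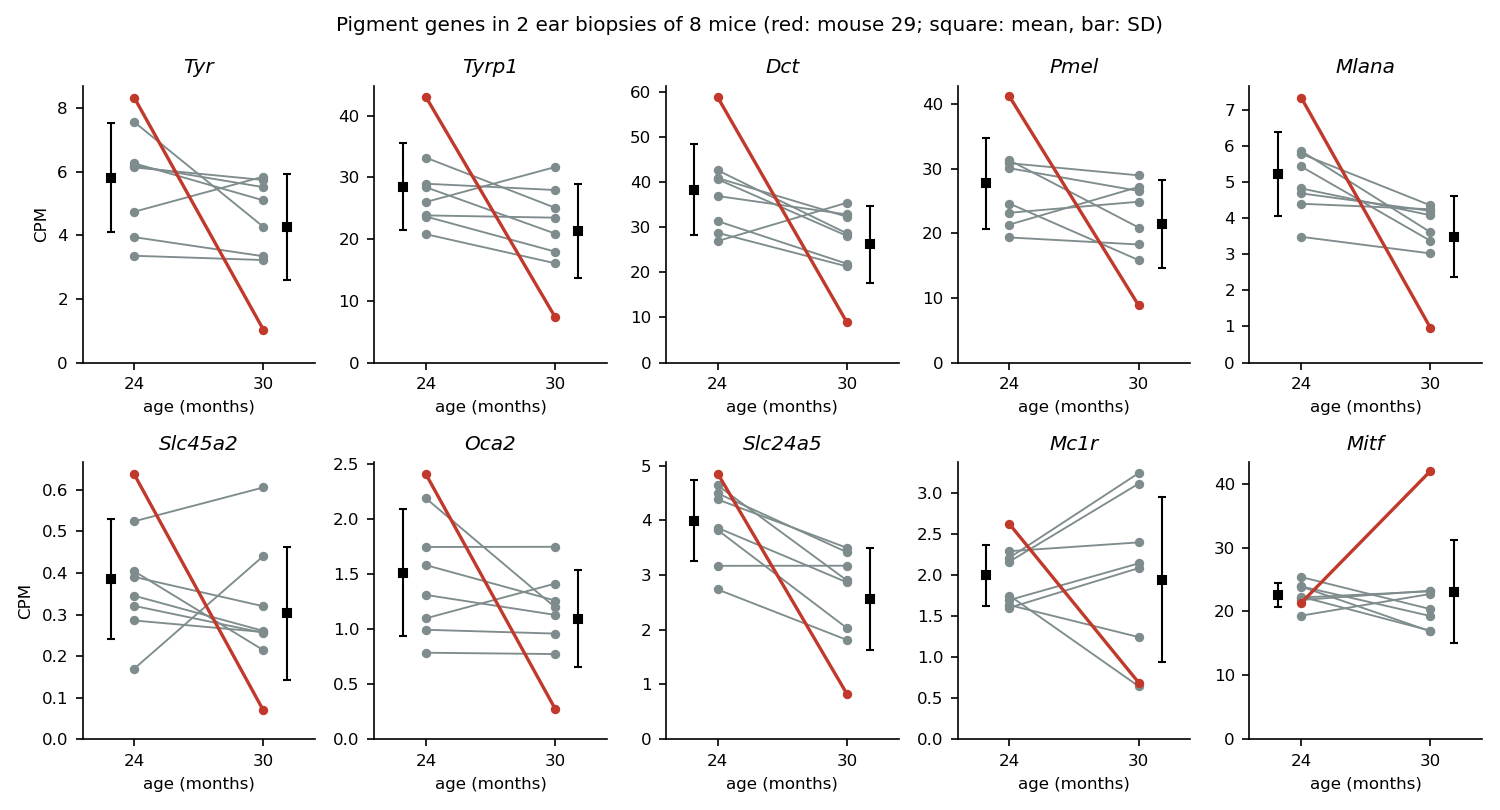
CPM of each pigment gene (y axis, 1 panel a gene) at 24 and 30 months (x axis), with 1 line for each of the 8 mice, mouse 29 in red, and the mean and SD of each age as a square with a bar. In 9 panels mouse 29 drops from the top of the 24 month group to the bottom or next to the bottom of the 30 month group, and in the *Mitf* panel it climbs above all others, while the grey lines of the other 7 mice show smaller changes in most panels.

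Genes for a pair of melanosomal structural proteins had lower values in most mice. PMEL forms the fibrils on which melanin is laid down, and its gene had 19.4, 27.3 and 41.2 CPM (lowest, median, highest) at 24 months and 8.86, 22.9 and 29.0 CPM at 30 months. The log2 fold change of *Pmel* was -0.39 ± 0.24 (SE, edgeR adjusted p = 0.530), with 6 of 8 mice lower. *Mlana*, which encodes the small membrane protein MART-1 that PMEL needs for its maturation, had 3.48, 5.12 and 7.33 CPM at 24 months and 0.965, 3.84 and 4.35 CPM at 30 months.

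*Mlana* was the only one of the 10 genes that was lower at 30 months in all 8 mice. Its log2 fold change was -0.62 ± 0.27 (SE), with an unadjusted p of 0.0475 and an adjusted p of 0.411 in edgeR. In 7 of the 8 mice the biopsy of 24 months lay above the highest biopsy of 30 months, and mouse 75, at the bottom of the younger group, was the exception. A lower value in at least 7 of 8 mice was found for 5 of the 10 genes (*Tyr*, *Tyrp1*, *Dct*, *Mlana* and *Slc24a5*) and for 8.33% of all tested genes.

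Among the 3 transporters of the melanosome, *Slc24a5* had the lowest estimate of all 10 genes. It encodes a potassium-dependent sodium and calcium exchanger whose loss lightens pigmentation. Its lowest, median and highest levels were 2.73, 4.12 and 4.85 CPM at 24 months and 0.827, 2.88 and 3.496 CPM at 30 months. The log2 fold change was -0.70 ± 0.24 (SE), with an unadjusted p of 0.0138 and an adjusted p of 0.316 in edgeR, and under the alternatives tried the adjusted p ran from 0.158 to 0.549. It was lower in 7 of 8 mice and all but level in mouse 64. For this gene the exons shared with *Myef2* on the other strand remain a limit of the count.

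*Oca2*, a chloride transporter that raises the pH of the melanosome, had 0.785, 1.45 and 2.41 CPM at 24 months and 0.276, 1.16 and 1.75 CPM at 30 months. Lower values were seen in 6 of 8 mice and the log2 fold change was -0.46 ± 0.32 (SE, edgeR adjusted p = 0.575). *Slc45a2*, a transporter that also acts on melanosomal pH, was the weakest of the 10 genes, with 2 to 22 reads in a library. Its levels were 0.170, 0.368 and 0.638 CPM at 24 months and 0.0689, 0.259 and 0.606 CPM at 30 months, and its log2 fold change was -0.34 ± 0.37 (SE, edgeR adjusted p = 0.721). Its difference between ages was smaller than its standard error.

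The receptor and the transcription factor at the head of the programme had the estimates closest to 0. *Mc1r* had 1.601, 1.96 and 2.62 CPM (lowest, median, highest) at 24 months and 0.644, 2.11 and 3.24 CPM at 30 months. Mice 14, 29 and 75 had less of it at 30 months and the other 5 had more, which gave a log2 fold change of -0.18 ± 0.29 (SE, edgeR adjusted p = 0.822) and, without mouse 29, of 0.05 ± 0.23 (SE, edgeR adjusted p = 0.949, and 0.690 to 0.987 over the alternatives). Its levels at 30 months were spread over a coefficient of variation of 51.7%, against 18.9% at 24 months.

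*Mitf* had 19.3, 22.2 and 25.4 CPM at 24 months and 16.9, 21.6 and 42.0 CPM at 30 months. It was lower in 4 mice and higher in the other 4, with a log2 fold change of -0.02 ± 0.15 (SE, edgeR adjusted p = 0.961) and of -0.16 ± 0.10 (SE, edgeR adjusted p = 0.636, and 0.636 to 0.981 over the alternatives) without mouse 29. At 24 months *Mitf* varied least of the 10 genes between mice, with a coefficient of variation of 8.28%, where the other 9 ran from 18.6% to 38.1%. *Mitf* is also used by mast cells, osteoclasts and other cells outside the pigment lineage, and its counts here sum all promoters.

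Per length of the annotated exons, *Pmel* was the highest of the 10 genes, with 12.1 ± 3.08 RPKM (CPM per kilobase of exon, SD, n = 8) at 24 months and 9.35 ± 2.98 RPKM at 30 months. *Tyrp1* (10.1 ± 2.48 RPKM), *Dct* (6.51 ± 1.72), *Mlana* (4.94 ± 1.10) and *Mitf* (3.63 ± 0.301) came next at 24 months. *Slc24a5* (1.71 ± 0.319 RPKM), *Tyr* (0.818 ± 0.241), *Mc1r* (0.549 ± 0.103), *Oca2* (0.382 ± 0.146) and *Slc45a2* (0.129 ± 0.0484) followed.

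Neighbours in that order held it in 7 or all 8 of the libraries of 24 months. The intervals of mean ± SD were separate between *Mitf* and *Slc24a5*, *Slc24a5* and *Tyr*, and *Oca2* and *Slc45a2*, and overlapped between all other neighbours. At 30 months the means kept the same order except that *Mitf*, at 3.72 ± 1.30 RPKM, passed *Mlana*, at 3.29 ± 1.06 RPKM. That exchange was not a general one, since *Mitf* was above *Mlana* in 3 of the 8 libraries of 30 months. *Tyr* was above *Mc1r* in 5 of those 8. The exon length used for *Tyr*, 7108 bases, was the longest of the 10 genes and covers all its annotated transcripts.

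Mouse 29 carried much of the difference between ages. Its biopsy of 24 months had the highest level of its group for 9 of the 10 genes, and its biopsy of 30 months had the lowest of its group for 8. *Tyr* went from 8.33 to 1.03 CPM (235 and 30 reads), *Dct* from 58.8 to 8.93 CPM (1660 and 259 reads) and *Oca2* from 2.41 to 0.276 CPM (68 and 8 reads). The 9 genes other than *Mitf* were lower by between 3.74-fold (*Mc1r*) and 8.29-fold (*Oca2*) within this mouse. In mouse 29, 7.77% of all tested genes were lower past 2-fold, which was the case for 9 of the 10 pigment genes. In the other mice 1 value among the 10 genes was lower past 2-fold, that of *Mc1r* in mouse 14 (log2 change -1.42), and 1 was higher past 2-fold, that of *Slc45a2* in mouse 50 (1.30, from 6 and 14 reads).

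*Mitf* went the other way in mouse 29, from 21.3 to 42.0 CPM. No other biopsy of 30 months had more than 23.3 CPM of it. As a result the ratio of *Mitf* to *Dct* in CPM was 4.70 in this library and between 0.363 and 0.955 in the other 15. By contrast the ratio of *Tyrp1* to *Dct* stayed between 0.636 and 0.996, and that of *Tyr* to *Dct* between 0.107 and 0.200, in all 16 libraries, mouse 29 included.

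**Figure D2:**
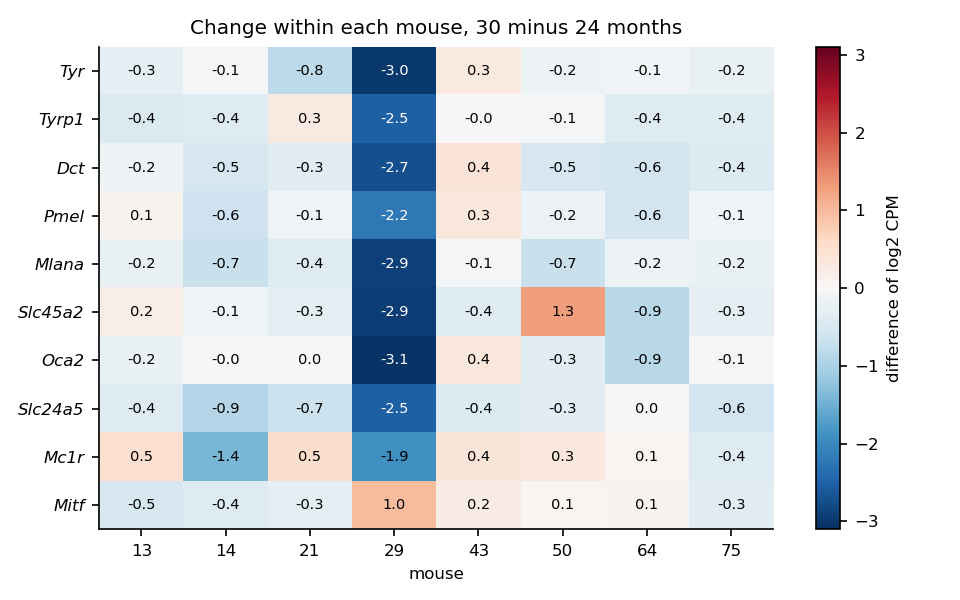
Difference of log2 CPM, 30 minus 24 months, for each of the 10 pigment genes (rows) in each of the 8 mice (columns), in blue where lower and red where higher at 30 months. The column of mouse 29 holds values from -1.9 to -3.1 in 9 genes and 1.0 in *Mitf*, mice 14 and 75 are lower in all 10 genes, and mouse 43 is higher in most.

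The same library differed in other markers, whose part in the pigment values was not tested. The sums of the lists closest to the pigment genes were above those of all other libraries there. The 20 other melanocyte genes summed to 1066 CPM (693 to 855 CPM in the other 15 libraries), the 17 genes of melanosome assembly to 680 CPM (577 to 660 CPM) and the 15 signals to 478 CPM (339 to 391 CPM). The first of these sums does not stand for a rise of all its genes. *Gpnmb*, also made by macrophages, held 437 CPM of it, from 171 CPM in the first ear. Of the 20 genes, 3 were at their highest of all libraries there and 3 at their lowest. Those at their lowest were *Trpm1*, *Mcoln3* and *Sytl2*, at 3.24, 1.55 and 6.07 CPM. *Pax3*, at 1.41 CPM, was the lowest of the 30 month group only. Nor does the sum of the signals stand for a rise of all its genes. *Defb1* held 141 CPM of that sum, from 39.0 CPM in the first ear. Of the 15 signals, 5 were at their highest of all libraries there and 3 (*Kitl*, *Edn3* and *Fgf2*) at their lowest. No gene of these lists was at 0 in this library. The 6 fat cell markers summed to 712 CPM there and to 65.2 to 324 CPM in the other 15 libraries, with none of the 6 at 0. *Fabp4* alone held 529 CPM of that sum. Of the 6, 3 were at their highest of all libraries there and 1, *Lep* at 1.65 CPM, was at its lowest. The 6 fibroblast markers summed to 2549 CPM, below the 2609 to 13993 CPM of the others, and none of them was at 0. The 12 Schwann cell markers, which include *Sox10* (shared with melanocytes), summed to 954 CPM, against 661 to 910 CPM in the others, and *Sox10* itself had 11.9 CPM in this library within a range of 8.32 to 14.3 CPM at 30 months. The 21 hair follicle markers summed to 104 CPM, near the low end of 102 to 529 CPM in the others, with *Krt72* at 0. Reads on genes (29875101) were not low in this library.

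Without mouse 29 the estimates of 8 genes were nearer to 0, that of *Mc1r* was above 0 and that of *Mitf* was farther from 0 (-0.02 and -0.16), and the standard errors of all 10 genes were smaller. *Slc24a5* then had a log2 fold change of -0.47 ± 0.13 (SE, unadjusted p of 0.00441 and adjusted p of 0.366 in edgeR), *Mlana* of -0.35 ± 0.11 (SE, edgeR adjusted p = 0.430) and *Dct* of -0.31 ± 0.11 (SE, edgeR adjusted p = 0.461). Over all alternatives the adjusted p ran from 0.235 to 0.603 for *Mlana* and from 0.224 to 0.616 for *Dct*. These 3 genes had an unadjusted p under 0.05 in the fit of 7 mice, where 5.84% of all tested genes were lower at that level and 0% passed the adjusted threshold.

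*Tyr* (-0.19 ± 0.13, SE), *Tyrp1* (-0.20 ± 0.10), *Pmel* (-0.15 ± 0.12) and *Oca2* (-0.16 ± 0.16) were closer to 0 in log2 fold change over the 7 mice, and *Slc45a2* was at -0.04 ± 0.27. The median change of the 10 genes within a mouse was -0.23 in mouse 13, -0.46 in mouse 14, -0.31 in mouse 21, -0.17 in mouse 50, -0.28 in mouse 64 and -0.30 in mouse 75. It was -2.63 in mouse 29 and 0.27 in mouse 43. Mice 14 and 75 were lower in all 10 genes, and mouse 43 was lower in 4.

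**Figure D3:**
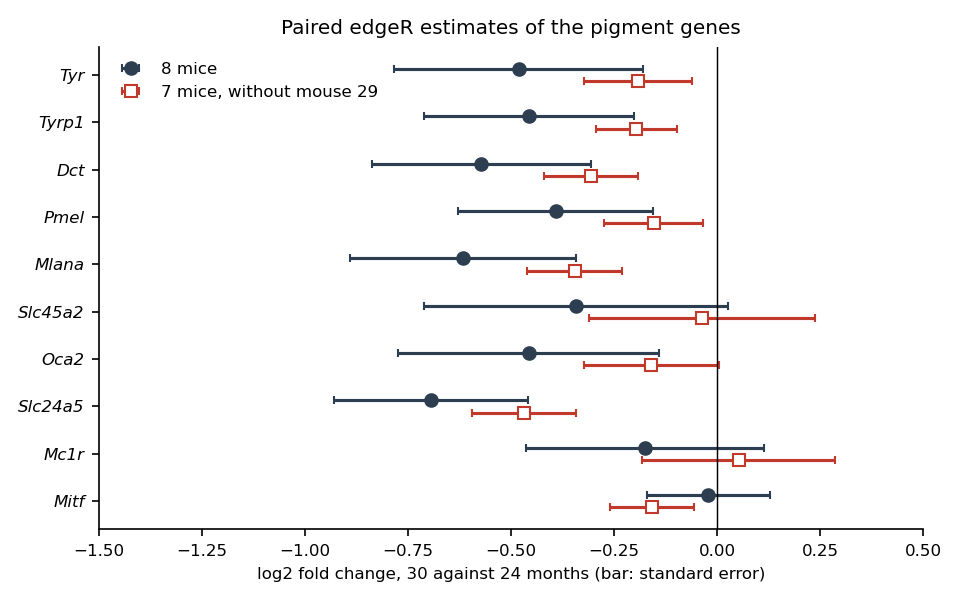
Log2 fold change of each pigment gene, 30 against 24 months (x axis, bars are standard errors), from the paired edgeR fit of 8 mice (filled circles) and of the 7 mice other than mouse 29 (open squares). Leaving out mouse 29 brings 9 estimates toward or past 0 and lowers that of *Mitf* from -0.02 to -0.16, and *Slc24a5* stays the lowest at -0.47.

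Whether a mouse kept its rank from one ear to the other was examined with correlations over the 8 mice. For log2 CPM at 24 against 30 months, Pearson's r ran from -0.60 (*Dct*) to 0.03 (*Mc1r*) and Spearman's rho from -0.64 (*Mitf*) to 0.19 (*Mc1r*). None of the 10 relations passed, with exact two-sided permutation p-values adjusted over the 10 genes of 0.475 to 0.952 for r and of 0.933 to 0.935 for rho. For *Dct* the exact permutation p of r was 0.130 and that of rho (-0.33) was 0.428. Leaving out the 2 mice farthest from the median at 24 months moved r of *Dct* from -0.60 to 0.83 (exact permutation p = 0.0708), so the sign rested on those mice, 29 and 43. Without mouse 29 alone, r was above 0 in 8 of the genes with a negative r, up to 0.67 for *Oca2*, and again none passed after adjustment.

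Pigment cells of the follicle make melanin while the hair grows, so the change of each pigment gene was also set against the mean change of 21 markers of growing hair follicles. Those markers varied far more than the pigment genes. Their mean log2 CPM differed within a mouse by between -2.30 (mouse 13) and 3.20 (mouse 43). In summed CPM, mouse 13 went from 145 to 106 CPM and mouse 43 from 106 to 199 CPM. *Krt33b*, *Krt34*, *Krt81*, *Krt83* and *Krt72* were at 0 in some library, and a mean of log2 CPM weighs such low markers as much as abundant ones. The sum of the markers was 529 CPM in mouse 75 at 24 months against 106 to 178 CPM in the other biopsies of that age. In that biopsy the 10 pigment genes summed to 107.48 CPM, the lowest of their group of 24 months. Mouse 43 at 24 months had nearly the same pigment sum, 107.51 CPM, with the lowest follicle sum of that age, 106 CPM. Mouse 43, whose follicle markers had the largest upward change, was the one mouse in which the median pigment gene was higher at 30 months. In mice 21 and 50 the mean log2 CPM of the follicle markers was higher too, by 0.81 and 0.79, and the median pigment gene was lower, by -0.31 and -0.17. The summed CPM of the follicle markers rose in mouse 21 (178 to 188 CPM) but fell in mouse 50 (134 to 102 CPM).

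Over the 8 mice, r between both changes ran from 0.12 (*Mitf*) to 0.55 (*Mc1r*), with adjusted exact permutation p-values of 0.434 to 0.758. The highest Spearman's rho was that of *Tyrp1* at 0.88, with an exact permutation p of 0.00724 that became 0.0724 after adjustment over the 10 genes and so did not pass. Its r was 0.52 (exact permutation p = 0.142, adjusted 0.434) and, without mice 21 and 43, 0.44 (exact permutation p = 0.213). For the other 9 genes rho lay between -0.12 and 0.55, with adjusted exact permutation p-values of 0.545 to 0.793.

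**Figure D4:**
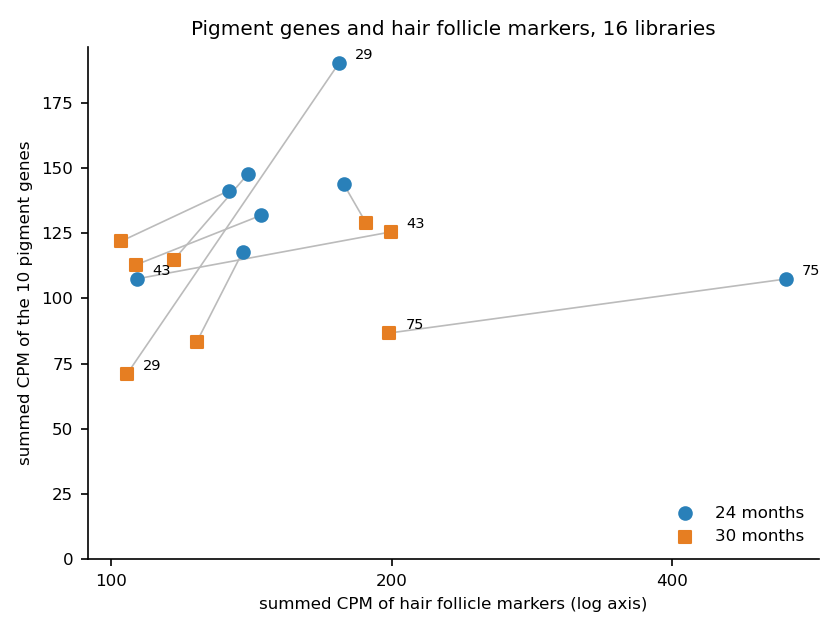
Summed CPM of the 10 pigment genes (y axis) against the summed CPM of 21 hair follicle markers (x axis, log scale) in 16 libraries, with circles for 24 months, squares for 30 months, lines that join the biopsies of a mouse and numbers for mice 29, 43 and 75. Mouse 75 at 24 months lies far right at 529 CPM of follicle markers with 107 CPM of pigment genes, and mouse 29 has both the highest (191 CPM) and the lowest (71.0 CPM) pigment sum.

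Beyond the 10 genes, 20 other genes used by melanocytes were measured. None passed the adjusted threshold in edgeR, 3 were lower and 1 was higher at an unadjusted p under 0.05 (7.18% and 4.86% of all tested genes), and the median log2 fold change of the 20 was -0.06. Without mouse 29, 4 were lower and 1 was higher (5.84% and 3.57% of all tested genes), and the median was again -0.06. *Gpr143*, a receptor in the melanosome membrane, had 0.143, 0.356 and 0.461 CPM (lowest, median, highest) at 24 months and 0.0355, 0.138 and 0.257 CPM at 30 months. Its log2 fold change was -1.11 ± 0.34 (SE, edgeR adjusted p = 0.288) with 7 of 8 mice lower. Few reads underlie this estimate, since its means of 0.317 and 0.145 CPM were below those of *Slc45a2* (0.385 and 0.303 CPM). *Mcoln3*, a cation channel of endosomes whose mutation causes the varitint-waddler coat, was at -0.50 ± 0.19 (SE, edgeR adjusted p = 0.346). *Atp7a*, which pumps the copper that tyrosinase needs, had 21.4 to 23.8 CPM at 24 months and 10.2 to 23.4 CPM at 30 months, with a log2 fold change of -0.47 ± 0.14 (SE, edgeR adjusted p = 0.279). *Slc7a11*, a cystine transporter that shifts melanin toward the yellow form, was at 0.31 ± 0.11 (SE, edgeR adjusted p = 0.334), higher in 7 of 8 mice.

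The 3 most abundant of these 20 genes, *Myo5a* (a motor that carries melanosomes), *Gpnmb* (a PMEL relative also made by macrophages) and *Mreg* (a melanosome transport factor), had log2 fold changes of -0.14 ± 0.08, 0.31 ± 0.17 and -0.03 ± 0.08 (SE). *Gpnmb* reached 437 CPM in mouse 29 at 30 months, from 171 CPM in its first ear. Several of these genes are active in keratinocytes and nerve cells too, so their levels do not stand for melanocytes alone.

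The 17 genes of melanosome and lysosome-related organelle assembly gave a median log2 fold change of -0.01, with 2 lower and 1 higher at an unadjusted p under 0.05 (7.18% and 4.86% of all tested genes) and none past the adjusted threshold in edgeR. Without mouse 29 none was lower and 1, *Dtnbp1*, was higher at that level, none passed the adjusted threshold, and the median was again -0.01. *Dtnbp1*, a subunit of the BLOC-1 complex that sorts cargo to melanosomes, was higher at 30 months in all 8 mice. Its range was 41.0 to 49.2 CPM at 24 months and 49.1 to 73.9 CPM at 30 months, with a log2 fold change of 0.33 ± 0.08 (SE, edgeR adjusted p = 0.232), and it was the 1 gene of these lists that DESeq2 called (adjusted p = 0.0297), where it called 1.11% of all genes. Its adjusted p in the other alternatives, all with edgeR, was 0.0938 to 0.516. *Lyst*, a regulator of lysosome size, was at -0.36 ± 0.14 (SE, edgeR adjusted p = 0.350) and *Hps4*, a subunit of BLOC-3, at -0.24 ± 0.09 (SE, edgeR adjusted p = 0.364). The most abundant of the list were *Ap3d1*, *Hps5* and *Ap3b1*, at 135, 62.3 and 59.4 CPM on average at 24 months, with log2 fold changes of -0.02 ± 0.06, -0.12 ± 0.07 and -0.08 ± 0.07 (SE).

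Of 15 genes for signals that reach melanocytes, 14 were tested and *Pomc*, the precursor of melanocortin, was too low. None of the 14 had an unadjusted p under 0.05 in edgeR or passed the adjusted threshold, and their median log2 fold change was 0.05. Without mouse 29 none had an unadjusted p under 0.05 either, and the median was 0.01. The most abundant were *Atrn* and *Mgrn1*, which act in agouti signalling, and *Wnt7b*, with log2 fold changes of -0.12 ± 0.07, 0.09 ± 0.06 and -0.07 ± 0.09 (SE). Of the 21 hair follicle markers, 3 were lower at an unadjusted p under 0.05 (*Foxn1*, *Hoxc13* and *Msx2*, all transcription factors of the follicle), none was higher (7.18% and 4.86% of all tested genes), and the median log2 fold change was -0.49. The same 3 were lower at that level without mouse 29 (5.84% of all tested genes), with a median of -0.33.

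Across the 16 libraries the levels of *Tyr*, *Tyrp1*, *Dct*, *Pmel*, *Mlana*, *Slc45a2* and *Oca2* went together, with correlations of log2 CPM between pairs of genes of 0.64 to 0.96 (median 0.90, 21 pairs). In the 14 libraries of the other 7 mice these were -0.23 to 0.87 (median 0.66). *Slc24a5* had an r of 0.92 with the mean standardised level of those 7 genes and *Mc1r* of 0.77, while *Mitf* had -0.60 over all libraries and 0.35 without mouse 29. These correlations describe libraries that share mice and carry no test.

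The genes outside the list with the most similar pattern over the 16 libraries, among genes of at least 1 CPM, were *Mphosph9* (r = 0.95), *Mmab* (0.93), *Lca5* (0.92), *Trpm1* (0.91), *BC030867* (0.91), *Pask* (0.90), *E2f8* (0.90), *Mxd3* (0.90), *Kntc1* (0.90) and *Mcoln3* (0.90). Of these, *Trpm1* (a cation channel first known from melanocytes) and *Mcoln3* stand in the list of other melanocyte genes. Without mouse 29 the r of *Trpm1* was 0.83, of *Mphosph9* 0.76, of *Mcoln3* 0.75 and of *Lca5* 0.73, whereas those of the other 6 lay between 0.31 and 0.58.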

How the data were processed

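RNA-seq libraries (TruSeq RNA v2, single-end, no strand mark) were made from 16 ear biopsies of 8 mice. The authors aligned the reads with TopHat and assigned them to genes with HTSeq or, later, featureCounts. The submitters' processing notes name CASAVA 1.8.4, TopHat2 2.1.0, HTSeq 0.6.1p1 and mm10. The values the authors deposited are raw counts per gene without normalization, 1 column a library. The table's 5 summary lines took 18.7% to 21.1% of each library and were left out. The number of columns from samples of other series was 0. Of 45706 identifiers, 45143 matched GENCODE M21, which gave symbols, positions and exon lengths, and of 155 listed genes 154 matched.

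The paired comparison was made with edgeR 4.0.16 in R 4.3.3 (TMM, filterByExpr, quasi-likelihood test) on the whole table, with mouse as a block and Benjamini-Hochberg adjustment at 0.05 over all tested genes. SEs were derived from the test statistic. The pairing comes from the mouse number in the titles. The median correlation of deviations from the age means was -0.015 for libraries of the same mouse and 0.0085 for libraries of different mice. Log2 CPM used a prior count of 0.5. Correlations over mice used exact two-sided permutation tests over all 40320 orders in Python 3.11.15 with numpy 2.4.6 and scipy 1.17.1. Both tests were checked on simulated data. The alternatives were DESeq2 size factors, total counts, DESeq2 1.42.0, no filter, no block (with the filter of the paired fit), age in months and each mouse left out in turn.

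The members, lists and tests were chosen with earlier results of these data known. Named are all 10 members, the genes of each other pigment list with an unadjusted p under 0.05 or among its 3 most abundant, and the 10 genes most similar to *Tyr*, *Tyrp1*, *Dct*, *Pmel*, *Mlana*, *Slc45a2* and *Oca2* over the libraries. Other genes were named after their values were seen.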

Additional observations from a re-analysis of the deposited data

Results flagged for a closer look

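For each of the 10 genes the log2 CPM at 24 months, at 30 months and the change within mice were examined for a mouse that lay far from the other 7, by Dixon's criterion. Of these 30 groups of 8 values, 14 held such a mouse, where chance gives about 1.5, and in each of the 14 it was mouse 29. At 30 months its level was 0.072 log2 CPM for *Tyr* (next lowest 1.70), 2.89 for *Tyrp1* (4.01), 3.16 for *Dct* (4.42), -0.026 for *Mlana* (1.603), -1.77 for *Oca2* (-0.34) and -0.24 for *Slc24a5* (0.87). For *Mitf* it was the highest, 5.39 log2 CPM against 4.54 in the next mouse. The change within mouse 29 was -2.99 for *Tyr*, -2.54 for *Tyrp1*, -2.72 for *Dct*, -2.21 for *Pmel*, -2.90 for *Mlana*, -3.05 for *Oca2* and -2.53 for *Slc24a5* on the log2 scale, and the next lowest change of these genes lay between -0.91 and -0.44. These values come from the same 2 libraries and are not independent of each other.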

How the results depend on the processing

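The number of the 10 genes past the threshold was 0 under all 14 alternatives, DESeq2's Wald test and the fit without a replicate block included, and 3 of the 10 had an unadjusted p under 0.05 in DESeq2 (lower, beside 6.01% of all genes). The median log2 fold change of the 10 genes was between -0.54 and -0.18 when a mouse was left out, the latter without mouse 29, and -0.43 without the replicate block. In the other pigment lists DESeq2 called 1 gene where edgeR called 0, in alternatives chosen after seeing the data. The estimate of *Mitf* changed sign without the replicate block (0.035), and with 1 mouse left out it ran from -0.16 to 0.059 and that of *Mc1r* from -0.28 to 0.052. The estimates of the other 8 genes kept their sign in every alternative run. The correlations between both ears with 1 mouse left out ran from -0.43 to 0.64 for *Tyr*, -0.69 to 0.61 for *Tyrp1*, -0.72 to 0.25 for *Dct*, -0.61 to 0.33 for *Pmel*, -0.82 to 0.41 for *Mlana*, -0.87 to 0.051 for *Slc45a2*, -0.46 to 0.67 for *Oca2*, -0.16 to 0.59 for *Mc1r* and -0.38 to 0.64 for *Slc24a5*. For the hair follicle relation, that of *Mitf* ran from -0.076 to 0.75. The cause of these changes was not tested. The block changed no other call.

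*Slc45a2* was the weakest of the 10 genes, with 2 to 22 reads, and DESeq2 gave it no adjusted p. Whether depth limits its comparison was not tested. In the paired fits the p-values rest on how the changes within a mouse vary over the 8 mice. Those of the correlations come from permutations of the mice.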
